A study of Rattus norvegicus with 6 samples.

Results

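The 57 genes described here encode the proteins that drive mitosis and guard it: the kinases and cyclins of mitotic entry, the spindle checkpoint, the anaphase machinery, the chromosomal passenger complex, the centromere and kinetochore, condensin, the spindle and the cytokinetic apparatus. They were chosen by name, with earlier results of these data known. All 57 were found among the 21026 gene symbols of the count table. All 57 also passed the filter on low counts, among 14273 tested genes. RNA-seq libraries came from polyadenylated RNA of rat (Rattus norvegicus) bone marrow mesenchymal stem cells, which grow attached to plastic and are a source of bone-forming cells. There were 3 libraries labelled aged and 3 labelled young, numbered as biological replicates, and age is the only condition the labels name. Strain, ages, sex, passage number and culture condition are not stated, nor is it stated that each replicate was a different animal, so p-values rest on the scatter among these libraries alone and part of that scatter may be technical.

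Dividing cells make most of these transcripts in the later part of the cell cycle, and resting cells switch them off. Cyclin B bound to the kinase CDK1 drives entry into mitosis. The checkpoint then holds the anaphase-promoting complex back until each kinetochore, the protein plate on the centromere, is attached to spindle fibres. Once released, that complex, with its activator CDC20, marks securin and cyclin B for destruction, and the chromatids separate. Many of these genes share a promoter design in which CCAAT boxes, bound by the factor NF-Y, stand before a short element called the cell cycle genes homology region (CHR). Through the CHR the DREAM complex represses them in resting cells, and in dividing cells the related MuvB complex with B-MYB and FOXM1 activates them.

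Promoter windows of 300 bases (250 before and 50 after the gene start, RefSeq, build GRCr8) were found for 47 of the 57 members. Those of Aurkb, Ccna2, Foxm1, Incenp, Pbk, Racgap1, Tpx2, Ube2c, Zw10 and Zwilch were not used here. A CHR element, searched on both strands as TTTGAA or TTCGAA, was found in 38 of 47 windows (80.9%), against 19.7% of all 33469 windows in the table. A CCAAT box, searched on both strands as CCAAT, was found in 36 of 47 (76.6%), against 37.5% of all windows. Both were present in 31 of 47 (66.0%), against 8.0% of all windows. The shares of all windows cover every 300-base window of the table, not only those of tested genes. Repeats of a symbol, if any, were dropped for members alone. Matches of the 2 motifs may share end letters, and TTCGAA reads alike on both strands. The windows shown are those of the 3 matched members with the largest falls in aged cells (Birc5, Plk1 and Nusap1), of the 3 members that rose (Cenpe, Smc2 and Smc4), and of Ncaph, a condensin subunit gene whose partners Smc2 and Smc4 moved the other way. Capitals mark each motif match, in either orientation. The windows are Birc5 (chr10:103571896-103572195, plus strand), Plk1 (chr1:186147408-186147707, plus strand), Nusap1 (chr3:127057045-127057344, plus strand), Cenpe (chr2:226310807-226311106, plus strand), Smc2 (chr5:71602155-71602454, plus strand), Smc4 (chr2:155550012-155550311, plus strand) and Ncaph (chr3:134852453-134852752, minus strand), each written 5′ to 3′ in the direction of the gene.
Birc5: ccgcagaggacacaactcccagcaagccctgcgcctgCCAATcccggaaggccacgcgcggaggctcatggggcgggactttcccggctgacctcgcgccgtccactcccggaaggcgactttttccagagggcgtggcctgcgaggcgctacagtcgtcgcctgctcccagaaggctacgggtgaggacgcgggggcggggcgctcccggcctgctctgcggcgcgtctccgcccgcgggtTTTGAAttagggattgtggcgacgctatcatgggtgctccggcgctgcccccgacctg
Plk1: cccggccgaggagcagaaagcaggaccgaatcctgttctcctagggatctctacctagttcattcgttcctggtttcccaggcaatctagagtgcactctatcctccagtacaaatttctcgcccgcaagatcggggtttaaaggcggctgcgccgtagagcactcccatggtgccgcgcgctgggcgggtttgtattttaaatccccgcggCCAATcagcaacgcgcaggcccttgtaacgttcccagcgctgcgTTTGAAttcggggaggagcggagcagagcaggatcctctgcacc
Nusap1: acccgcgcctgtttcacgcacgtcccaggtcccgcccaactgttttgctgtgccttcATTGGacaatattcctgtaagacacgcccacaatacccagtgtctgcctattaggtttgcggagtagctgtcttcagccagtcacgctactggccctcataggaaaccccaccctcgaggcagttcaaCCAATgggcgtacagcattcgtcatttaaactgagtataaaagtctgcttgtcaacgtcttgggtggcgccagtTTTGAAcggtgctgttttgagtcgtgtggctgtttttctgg
Cenpe: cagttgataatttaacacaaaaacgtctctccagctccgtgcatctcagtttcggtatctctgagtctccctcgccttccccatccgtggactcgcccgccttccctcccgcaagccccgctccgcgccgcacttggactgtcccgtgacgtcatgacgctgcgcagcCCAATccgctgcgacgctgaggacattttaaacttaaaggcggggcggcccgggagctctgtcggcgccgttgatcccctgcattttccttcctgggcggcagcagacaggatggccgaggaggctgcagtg
Smc2: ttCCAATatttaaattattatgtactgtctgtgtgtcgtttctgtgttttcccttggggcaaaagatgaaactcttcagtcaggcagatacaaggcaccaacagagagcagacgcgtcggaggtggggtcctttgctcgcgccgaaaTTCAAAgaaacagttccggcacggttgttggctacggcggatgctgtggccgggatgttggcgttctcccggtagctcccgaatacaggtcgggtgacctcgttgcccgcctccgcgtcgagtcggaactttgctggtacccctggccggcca
Smc4: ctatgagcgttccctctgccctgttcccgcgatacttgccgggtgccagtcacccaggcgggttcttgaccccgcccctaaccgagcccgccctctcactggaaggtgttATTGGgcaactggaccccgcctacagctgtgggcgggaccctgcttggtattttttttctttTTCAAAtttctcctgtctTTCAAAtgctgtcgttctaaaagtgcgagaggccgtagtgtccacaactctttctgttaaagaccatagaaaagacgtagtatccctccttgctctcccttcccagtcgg
Ncaph: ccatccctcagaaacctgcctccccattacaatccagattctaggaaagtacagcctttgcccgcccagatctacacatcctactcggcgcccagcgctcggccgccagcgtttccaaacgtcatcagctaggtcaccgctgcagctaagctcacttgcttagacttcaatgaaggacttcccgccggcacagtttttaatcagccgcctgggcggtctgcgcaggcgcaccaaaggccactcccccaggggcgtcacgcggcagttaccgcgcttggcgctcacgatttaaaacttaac

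The Birc5 window holds TTTGAA beginning 8 bases before the start. In Plk1 the same word begins at base 7 after the start, with a CCAAT box beginning 38 bases before it, and in Nusap1 it begins at base 10, with a CCAAT box 65 bases before. Smc2 and Smc4 carry the CHR letters in the opposite orientation, TTCAAA, beginning 103 bases before the start in Smc2 and 78 and 60 bases before it in Smc4. Cenpe has a CCAAT box and no CHR match. Ncaph has no match to either motif in this window. Aurka, Bub1 and Melk also had neither. A CHR match was present in 26 of 33 members that fell at least 2-fold (78.8%) and in 12 of the other 14 (85.7%), and both motifs in 20 of 33 (60.6%) and 11 of 14 (78.6%).

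**Figure D1:**
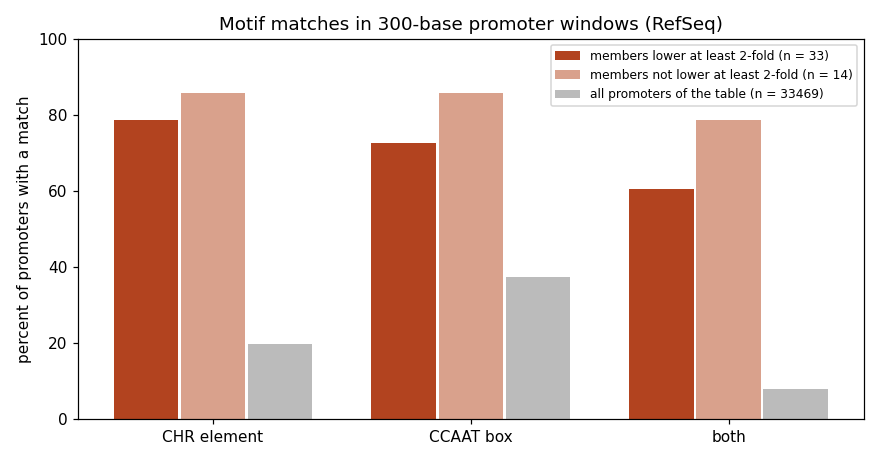
Percent of 300-base RefSeq promoter windows with a CHR element, a CCAAT box or both, for the 33 matched members that fell at least 2-fold in aged cells, the other 14 matched members and all 33469 windows of the table. Both groups of members stand above all windows, 78.8% and 85.7% against 19.7% for the CHR element.

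Levels below are counts scaled to a common library size (CPM), with TMM factors that correct for differences in composition between libraries; they are not per length, so each gene is compared between libraries and not with other genes. Changes are log2 ratios of aged over young with their standard errors (SE), and a gene was called when its Benjamini-Hochberg adjusted p in edgeR's quasi-likelihood test was under 0.05. Total counts were 34638874 to 38921547 in the aged libraries and 40180480 to 42479626 in the young ones, so 3 counts, the most that a count of 0 allows, correspond to 0.0688 to 0.0840 CPM. No member had a group mean below that limit. Genes with at least 1 count numbered 17790 to 17995 in the aged libraries and 16337 to 16492 in the young ones. The TMM factors also parted by group, at 1.12 to 1.13 in aged and 0.888 to 0.893 in young libraries. Among the young libraries, replicate 2 stood apart: its counts differed from those of replicates 1 and 3 with a chi-square per degree of freedom of 11.1 and 9.13, against 3.16 to 3.64 in the other pairs. The 13 stromal marker genes summed to 29440 to 29639 CPM in aged and 53037 to 53708 CPM in young libraries, led by Col1a1 and Col1a2, which encode the chains of type I collagen and were 1.79-fold and 1.83-fold lower in aged cells. The markers did not move as one: 9 were called lower, 3 higher and Eng, which encodes endoglin, was not called. Cxcl12, a chemokine gene of marrow stroma, was lowest relative to young cells, with 203.2 and 3387 CPM in aged and young cells, while Nt5e, which encodes CD73, had 47.3 and 10.5 CPM, Itgb1, an integrin gene, 2499 and 1530 CPM, and Lepr, the leptin receptor gene, 0.544 and 0.120 CPM. Of 14 blood cell markers in the table, 9 stayed below 1 CPM in every library, and Ptprc, which encodes the pan-leukocyte antigen CD45, had no count in 5 of the 6 libraries. The sum of those markers was 43.5 to 44.5 CPM in aged and 104.1 to 107.1 CPM in young libraries. Its 2 highest members were Cd14, which encodes a lipopolysaccharide co-receptor, at 21.0 and 80.7 CPM in aged and young cells, and Csf1r, which encodes the receptor of a macrophage growth factor, at 21.8 and 0.321 CPM. Mpo and Lyz2, which encode enzymes of myeloid cells, had 0.0503 and 0.173 CPM in aged cells, against 10.7 and 10.4 CPM in young cells, and were named after their values were seen. Endothelial markers, of which 7 of 8 were below 1 CPM in every library, summed to 21.5 to 25.6 CPM in aged and 40.9 to 43.9 CPM in young libraries, almost all of it Egfl7 at 23.6 and 41.8 CPM. Tek, a receptor kinase gene of blood vessels, reached 0.398 and 0.0273 CPM. The 5 erythroid markers summed to 0.641 to 0.775 CPM in aged and 0.336 to 0.831 CPM in young libraries, with Epor at 0.4996 and 0.0996 CPM and Klf1 at 0.145 and 0.448 CPM. The part of these differences in the results below was not tested.

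Most mitotic genes were lower in aged cells, by 1.18-fold (Zwilch) to 51.7-fold (Ube2c) among those called. Of 57 members, 49 fell, 3 rose and 5 were not called, with a median log2 change of -2.47. With libraries scaled by size alone, 43 fell and 5 rose, beside 32.6% lower and 54% higher of all tested genes. With TMM factors 86.4% of all tested genes were called, 41.8% lower and 44.7% higher, and their median change was 0.05. A fall of at least 2-fold was called for 41 members (71.9%), against 21.0% of all tested genes, and a fall of at least 8-fold for 22 members (38.6%), against 3.15%. Smc2 and Smc4 rose at least 2-fold, as did 29.4% of all tested genes. In 48 members all aged libraries lay below all young ones, as in 42.4% of tested genes, and in 3 all aged libraries lay above, as in 45.2%. Counts by role below are to be read beside these shares of all tested genes. The 57 members together took 0.0629% to 0.0642% of the counts of an aged library and 0.202% to 0.211% of those of a young one. Mean levels ran from 0.325 to 48.6 CPM in aged cells and from 2.28 to 159.9 CPM in young cells, and 6 members fell below 1 CPM in aged cells while none was there in young cells. In bulk RNA, fewer dividing cells and less of these transcripts per cell cannot be told apart.

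**Figure D2:**
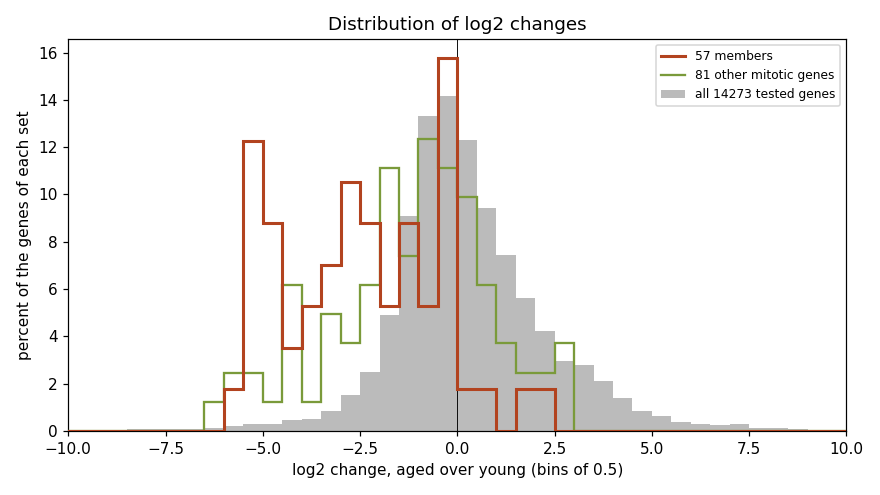
Distribution of log2 changes, aged over young, in bins of 0.5, as a percent of each set: the 57 members, 81 other mitotic genes and all 14273 tested genes. The members spread from -5.69 to 2.39, with a median of -2.47, and all tested genes centre near 0 with a median of 0.05.

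**Figure D3:**
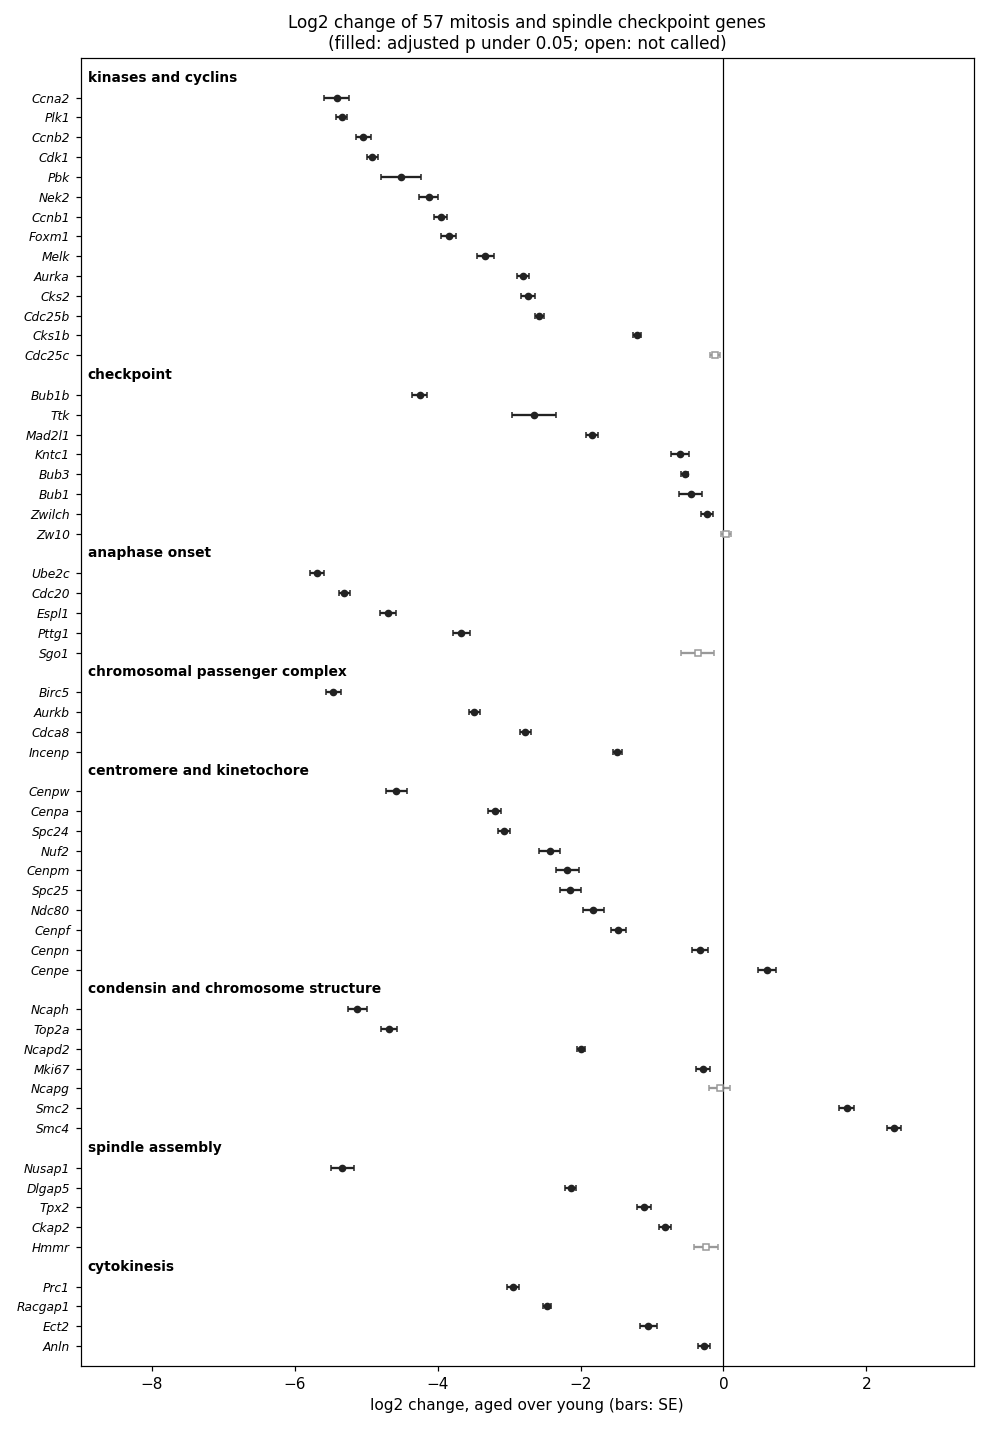
Log2 change of each member, aged over young, with SE bars, by role. Filled circles were called at an adjusted p under 0.05 and open squares were not. Smc4, Smc2 and Cenpe are the 3 to the right of 0 that were called.

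Enzymes and regulators of mitotic entry were lower in aged cells. Of 14 kinase, cyclin and related genes, 13 fell, all of them at least 2-fold, with a median log2 change of -3.90, and Cdc25c was not called. Cdk1, the kinase that starts mitosis, had 5.33, 6.12 and 4.36 CPM in aged libraries, against 157.4, 156.6 and 165.8 CPM in young ones. Ccna2, which encodes cyclin A2, had 0.484, 0.871 and 0.384 CPM in aged libraries, against 23.0, 28.3 and 24.3 CPM in young ones. Neither gene's groups overlapped, and the falls were 4.92 ± 0.08 and 5.41 ± 0.18 on the log2 scale (SE; edgeR adjusted p = 7e-19 and 5.8e-15). The B-type cyclin genes did not fall alike: Ccnb2 fell 32.9-fold and Ccnb1 fell 15.6-fold. Plk1, a kinase of mitotic entry and spindle formation, fell 40.7-fold, Nek2, a kinase of centrosome separation, fell 17.5-fold, and Aurka, a centrosomal kinase that builds spindle poles, fell 6.98-fold to 6.80 ± 0.96 CPM, against 47.6 ± 0.99 CPM in young cells (SD, n = 3 each). Foxm1, the transcription factor gene that activates many of the others, fell 14.4-fold, to 3.07 ± 0.59 CPM in aged cells, against 44.2 ± 1.52 CPM in young cells. Melk and Pbk, which encode kinases abundant in dividing progenitor cells, fell 10.1-fold and 22.9-fold.

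The paired genes in this group parted from each other. Cdc25b and Cdc25c encode phosphatases that switch CDK1 on. Cdc25c had 23.7, 23.0 and 23.4 CPM in aged libraries, against 26.3, 23.4 and 26.4 CPM in young ones, and Cdc25b had 10.3, 9.84 and 10.9 CPM in aged libraries, against 63.1, 59.9 and 62.5 CPM in young ones. The Cdc25c groups overlapped, with a log2 change of -0.12 (95% interval -0.27 to 0.03), and those of Cdc25b lay far apart, a fall of 2.58 ± 0.07. Without young replicate 2 Cdc25c was called lower (log2 change -0.18, edgeR adjusted p = 0.022). Scaled by library size alone it was called higher instead (0.22, edgeR adjusted p = 0.009). Over 13 alternatives its adjusted p ran from 0.009 to 0.25. Cks1b and Cks2 encode small subunits that bind CDK1, and because the 2 are close paralogs, how counting divided reads that fit both is unknown. Cks1b fell 2.31-fold, to 30.5 ± 0.43 CPM in aged cells, against 70.6 ± 1.99 CPM in young cells, and Cks2 fell 6.65-fold, to 7.11 ± 1.22 CPM, against 47.2 ± 1.78 CPM.

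The spindle checkpoint genes differed widely among themselves. Of 8 genes, 7 fell, 3 of them at least 2-fold, and the median log2 change was -0.58 (4 fell and 1 rose when scaled by library size alone). Bub1b, which encodes BUBR1, the part of the checkpoint complex that blocks CDC20, had 1.501, 1.90 and 1.72 CPM in aged libraries, against 33.0, 34.1 and 30.7 CPM in young ones. Bub3, its binding partner, had 48.7, 46.8 and 50.2 CPM in aged libraries, against 70.3, 73.0 and 69.0 CPM in young ones. Neither gene's groups overlapped, but the falls differed in size, 19.0-fold for Bub1b and 1.46-fold for Bub3. Mad2l1, which encodes the MAD2 protein that binds CDC20, fell 3.59-fold, and Ttk, which encodes the kinase MPS1 that starts the signal, fell 6.30-fold to 0.542 ± 0.257 CPM, against 3.39 ± 0.24 CPM in young cells (SD, n = 3 each).

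Bub1, the related kinase gene, was called lower by 0.46 ± 0.16 on the log2 scale (edgeR adjusted p = 0.014), although its groups overlapped, with 3.97, 3.53 and 5.20 CPM in aged libraries, against 5.10, 6.33 and 6.02 CPM in young ones. The call was lost without aged replicate 1 (adjusted p = 0.055), without aged replicate 2 (adjusted p = 0.083) and when scaled by library size alone (adjusted p = 0.48), with 0.0031 to 0.48 over 13 alternatives. Zw10, Zwilch and Kntc1 encode the RZZ complex, which brings MAD1 and dynein to the kinetochore. Zw10 had 23.8, 23.4 and 23.9 CPM in aged libraries, against 21.8, 23.6 and 23.7 CPM in young ones, and its groups overlapped (log2 change 0.04, 95% interval -0.11 to 0.18). When scaled by library size alone Zw10 was called higher (0.37, edgeR adjusted p = 8.8e-05), and without young replicate 1 its change was -0.02, not called. Kntc1 fell 1.52-fold, to 6.52 ± 0.23 CPM against 9.93 ± 1.72 CPM in young cells, a call lost when scaled by library size alone (edgeR adjusted p = 0.06, the highest over 13 alternatives). Zwilch was called lower at 1.18-fold (edgeR adjusted p = 0.015), but its change was 0.10 and not called when scaled by library size alone (adjusted p = 0.27), and the call was lost without aged replicate 3 (adjusted p = 0.071), with 0.0063 to 0.27 over 13 alternatives.

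Genes that start anaphase had some of the deepest falls among the members. Of 5 genes, 4 fell, all of them at least 8-fold. Ube2c, which encodes the ubiquitin-conjugating enzyme of the anaphase-promoting complex, had 1.26, 1.03 and 0.948 CPM in aged libraries, against 56.2, 56.95 and 55.1 CPM in young ones. Cdc20, the activator of that complex, had 2.62, 2.50 and 3.31 CPM in aged libraries, against 114.6, 107.0 and 110.7 CPM in young ones. The groups lay far apart in both, with falls of 51.7-fold and 39.6-fold (edgeR adjusted p = 1.8e-18 and 4.4e-19), and that of Ube2c was the largest among the 57 members. Securin, encoded by Pttg1, holds separase back. Pttg1 fell 12.7-fold and Espl1, which encodes separase, fell 25.9-fold. Sgo1, which encodes shugoshin, the protector of centromeric cohesin, had 1.79, 2.09 and 1.44 CPM in aged libraries, against 2.22, 2.59 and 2.04 CPM in young ones. Its groups overlapped and it was not called (log2 change -0.36, 95% interval -0.85 to 0.13, edgeR adjusted p = 0.15).

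The chromosomal passenger complex corrects faulty spindle attachments, and all 4 of its genes fell at least 2-fold without overlap between groups. Of all tested genes 21.0% fell at least 2-fold, and in 42.4% all aged libraries lay below all young ones. Birc5, which encodes survivin, had 1.26, 1.10 and 1.20 CPM in aged libraries, against 53.4, 48.3 and 55.6 CPM in young ones. Incenp, the scaffold gene of the complex, had 28.7, 26.8 and 25.1 CPM in aged libraries, against 74.4, 74.0 and 77.2 CPM in young ones. The scaffold gene thus fell by 1.48 ± 0.06 and Birc5 by 5.46 ± 0.10 on the log2 scale. The kinase gene Aurkb and Cdca8, which encodes borealin, lay between them, 11.2-fold and 6.83-fold lower.

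Centromere and kinetochore genes fell in 9 of 10 cases and rose in 1, with a median log2 change of -2.17. Cenpw, which encodes a histone-fold protein of the inner kinetochore, had 0.678, 0.757 and 0.564 CPM in aged libraries, against 15.3, 17.0 and 16.04 CPM in young ones. Spc24, a subunit gene of the NDC80 complex that grips microtubules, had 5.16, 5.59 and 5.41 CPM in aged libraries, against 47.4, 41.1 and 47.3 CPM in young ones. The groups lay apart in both genes, with falls of 23.9-fold and 8.39-fold. The other NDC80 complex genes fell too, Nuf2 by 5.40-fold, Spc25 by 4.42-fold and Ndc80 by 3.53-fold. Cenpa, the histone H3 variant gene that marks the centromere, fell 9.22-fold, to 4.30 ± 0.39 CPM against 39.7 ± 1.45 CPM in young cells (SD, n = 3 each), and Cenpm, an inner kinetochore gene, fell 4.56-fold.

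Cenpe and Cenpf, which encode large proteins of the outer kinetochore, moved in opposite directions. Cenpe, a kinesin motor gene that carries chromosomes to the spindle equator, had 10.7, 10.02 and 9.02 CPM in aged libraries, against 6.46, 7.49 and 5.51 CPM in young ones. All aged libraries lay above all young ones, a rise of 0.61 ± 0.13 on the log2 scale (edgeR adjusted p = 0.00024). Cenpf fell by 1.47 ± 0.10, to 5.44 ± 0.49 CPM against 15.1 ± 0.35 CPM. Cenpn, which encodes a protein that recognises CENP-A nucleosomes, was called lower at 1.26-fold (edgeR adjusted p = 0.015). The Cenpn call was lost without aged replicate 3 (adjusted p = 0.059) and without young replicate 2 (adjusted p = 0.10), and scaling by library size alone left a change of 0.01 (adjusted p = 0.96), with 0.0028 to 0.96 over 13 alternatives.

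**Figure D4:**
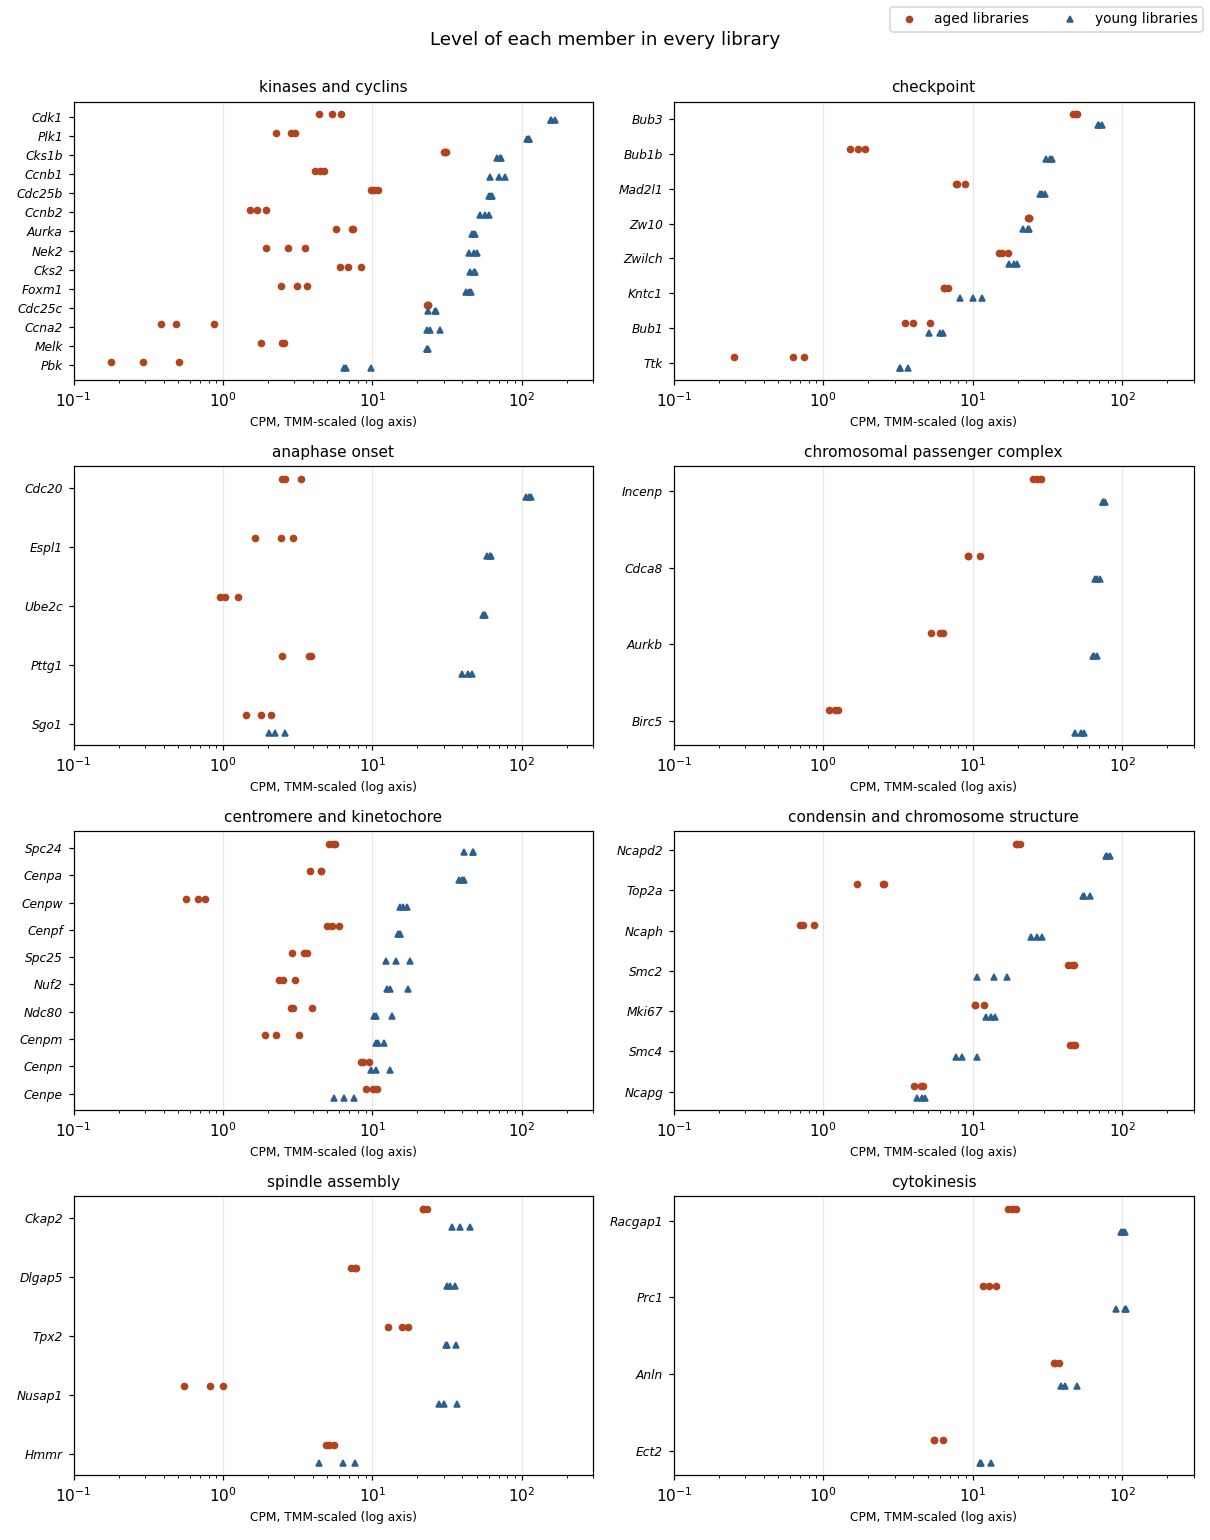
TMM-scaled CPM of every member in each of the 3 aged libraries (circles) and 3 young libraries (triangles), on a log axis, by role. The 2 groups are apart for most members, overlap for Cdc25c, Bub1, Zw10, Sgo1, Ncapg and Hmmr, and are in reverse order for Smc2, Smc4 and Cenpe.

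Condensin, the ring complex that compacts chromosomes for mitosis, had subunit genes that moved in opposite directions. With Top2a and Mki67 it makes up the role with the widest range among the 8, from -5.12 to 2.39, in which 4 genes fell, 2 rose and the median was -0.29 (0.05 when scaled by library size alone). Condensin I has a core of SMC2 and SMC4, which condensin II shares, closed by the kleisin NCAPH and carrying NCAPD2 and NCAPG. Smc4 had 48.3, 47.0 and 44.7 CPM in aged libraries, against 7.73, 10.6 and 8.42 CPM in young ones. Smc2 had 47.4, 43.7 and 45.9 CPM in aged libraries, against 13.9, 16.9 and 10.6 CPM in young ones. Every aged library lay above every young one in both, with rises of 5.23-fold and 3.30-fold (edgeR adjusted p = 7.7e-14 and 8.3e-11). Ncaph had 0.702, 0.734 and 0.871 CPM in aged libraries, against 24.5, 29.3 and 26.8 CPM in young ones. Ncapd2 had 19.4, 20.7 and 19.7 CPM in aged libraries, against 79.1, 78.1 and 82.3 CPM in young ones. These groups lay apart the other way, 34.9-fold and 3.999-fold lower in aged cells (edgeR adjusted p = 2.7e-16 and 8.3e-16). Ncapg had 4.02, 4.65 and 4.49 CPM in aged libraries, against 4.60, 4.80 and 4.23 CPM in young ones. The Ncapg groups overlapped and it was not called (log2 change -0.05, 95% interval -0.36 to 0.26, edgeR adjusted p = 0.75). Its sign turned without aged replicate 1, to 0.01, and when scaled by library size alone, to 0.29, neither called. Of the condensin II genes, which are not members, Ncaph2 had 54.0 and 116.2 CPM in aged and young cells, a log2 change of -1.11. Ncapd3 changed by -0.27 and Ncapg2 by 0.15, the latter not called.

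**Figure D5:**
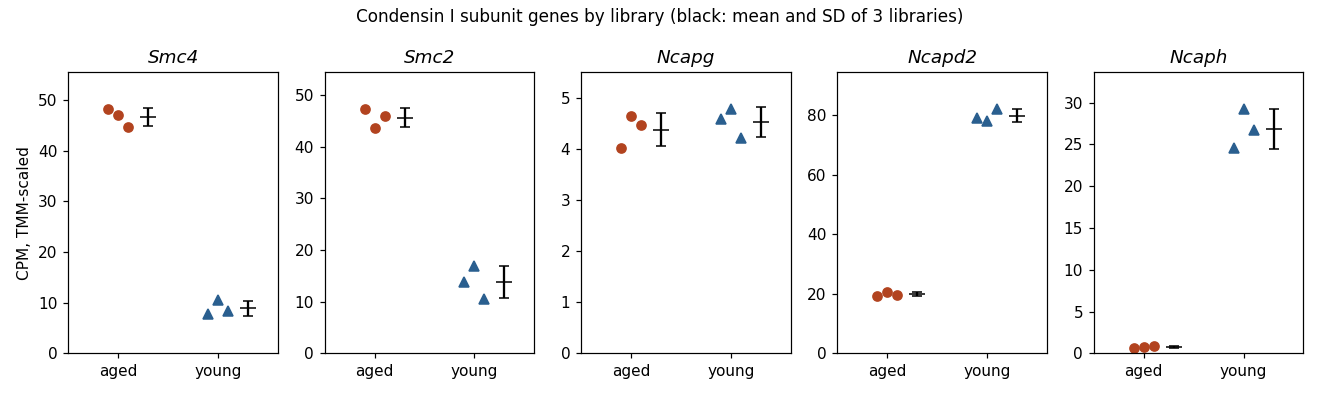
TMM-scaled CPM of the condensin I subunit genes in the aged (circles) and young (triangles) libraries, each panel with its own axis from 0, with the mean and SD of 3 libraries in black. Smc4 and Smc2 are higher in all aged libraries, Ncapg overlaps, and Ncapd2 and Ncaph are lower in all aged libraries.

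Top2a and Mki67 belong to mitotic chromosomes as well. Top2a, which encodes the topoisomerase that untangles chromatids, fell 25.6-fold, to 2.24 ± 0.49 CPM against 57.1 ± 3.61 CPM in young cells (SD, n = 3 each). The Mki67 gene, which encodes the proliferation marker Ki-67, had 10.4, 10.3 and 11.8 CPM in aged libraries, against 12.4, 13.2 and 14.05 CPM in young ones. These Mki67 groups did not overlap but lay close, a fall of 0.29 ± 0.10 on the log2 scale (edgeR adjusted p = 0.011). The call was lost without aged replicate 2 (adjusted p = 0.051), and scaling by library size alone gave 0.05, not called (adjusted p = 0.63), with 0.0051 to 0.63 over 13 alternatives.

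Spindle assembly genes fell in 4 of 5 cases, with a median log2 change of -1.12. Nusap1, which encodes a protein that bundles microtubules near chromosomes, had 0.993, 0.550 and 0.820 CPM in aged libraries, against 28.0, 37.0 and 30.2 CPM in young ones. Ckap2, a gene of a spindle pole protein, had 21.8, 21.7 and 23.2 CPM in aged libraries, against 38.6, 44.7 and 34.3 CPM in young ones. The groups lay apart in both, 40.4-fold and 1.76-fold lower in aged cells. Hmmr, which encodes a spindle protein that also binds hyaluronan, had 5.13, 4.88 and 5.51 CPM in aged libraries, against 6.37, 7.60 and 4.42 CPM in young ones. Its groups overlapped and the young libraries were the more scattered (log2 change -0.25, 95% interval -0.60 to 0.11). Without young replicate 3 Hmmr was called lower (log2 change -0.45, edgeR adjusted p = 0.0091, with 0.0091 to 0.71 over 13 alternatives), and scaling by library size alone gave 0.09. Dlgap5, which encodes a protein that stabilises kinetochore fibres, fell 4.41-fold, and Tpx2, the activator of the Aurora A kinase, fell 2.17-fold.

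The cytokinesis genes fell in all 4 cases, with a median log2 change of -1.76. Prc1, which encodes the protein that cross-links the central spindle, had 12.9, 14.4 and 11.6 CPM in aged libraries, against 90.5, 105.9 and 104.3 CPM in young ones. Racgap1, a gene of the centralspindlin complex, had 18.2, 17.2 and 19.4 CPM in aged libraries, against 104.9, 98.3 and 101.1 CPM in young ones. Both groups lay apart, 7.71-fold and 5.56-fold lower in aged cells. Ect2, which encodes the exchange factor that RACGAP1 recruits to activate RhoA, fell 2.07-fold. Anln, the gene of the contractile ring scaffold anillin, had 34.9, 35.5 and 37.7 CPM in aged libraries, against 39.2, 50.1 and 41.1 CPM in young ones. The Anln groups lay close without overlap, a fall of 0.27 ± 0.08 (edgeR adjusted p = 0.0042), and the sign turned when scaled by library size alone, to 0.06, not called (adjusted p = 0.46, the highest over 13 alternatives).

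Ratios of counts within a library do not depend on how libraries are scaled. Pairs of members with a shared complex or function were set against each other for this purpose, chosen after their values were seen. For Smc4 over Ncaph the ratio was 68.8, 64.1 and 51.3 in aged libraries, against 0.315, 0.362 and 0.315 in young ones, a 184.7-fold change. For Smc2 over Ncaph it was 67.4, 59.5 and 52.6 in aged libraries, against 0.567, 0.576 and 0.396 in young ones, a 117.8-fold change. Both ratios were higher in every aged library than in any young one. The core pair itself moved less, with a ratio of Smc2 over Smc4 of 0.980, 0.928 and 1.03 in aged libraries and 1.80, 1.59 and 1.26 in young ones. Incenp over Birc5 changed 15.7-fold, Bub1 over Bub1b 13.8-fold, Mki67 over Top2a 21.2-fold, Hmmr over Nusap1 35.6-fold, Sgo1 over Espl1 20.5-fold, Cdc25c over Cdc25b 5.50-fold, Cenpe over Cenpf 4.28-fold and Cks1b over Cks2 2.89-fold, each higher in the aged libraries. In all 13 pairs compared the aged and young ratios did not overlap, which the choice of pairs made likely, so the ratios are a description with no test.

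Young replicate 2, the library that stood apart, was the highest of the young libraries for 38 of 57 members, against 37.6% of all tested genes. Relative to the mean of young replicates 1 and 3, its members ran from 0.868 (Spc24) to 1.499 (Pbk). Above 1 were 40 of 57, against 49.4% of all tested genes. Hmmr, Smc2, Nuf2, Spc25, Smc4 and Ndc80 followed Pbk, at 1.41, 1.38, 1.35, 1.35, 1.31 and 1.31 times that mean. Cdk1, Plk1, Cdc20 and Aurkb were close to it, at 0.969, 0.961, 0.950 and 0.959. Over the members, this ratio and the log2 change had a Spearman rank correlation of 0.31, beside 0.24 over all tested genes. Both quantities use the young libraries, so the correlation is a description with no test. With young replicate 2 left out, 49 members were called lower and 3 higher, and the median log2 change was -2.50. Cdc25c gained and Cenpn lost its call there, as given above.

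Other mitotic genes, listed by function and not members, were set beside them. Among the 81, calls numbered 54 lower and 18 higher, or 66.7% and 22.2%, beside 41.8% and 44.7% of all tested genes, and the median change was -0.98 on the log2 scale (48 fell and 23 rose when scaled by library size alone). The largest falls among them were in Oip5, Hjurp and Sapcd2. Oip5 and Hjurp, which encode proteins that load CENP-A onto centromeres, had 0.345 ± 0.184 and 0.686 ± 0.119 CPM in aged cells, against 24.2 ± 2.12 and 43.3 ± 1.24 CPM in young cells (SD, n = 3 each), 70.7-fold and 62.8-fold lower. Sapcd2, a gene of spindle orientation, was 45.6-fold lower. The largest rises were in Cdc27, a subunit gene of the anaphase-promoting complex, Tpr, a gene of the nuclear pore basket that anchors MAD1, and Cenpc, which encodes the foundation protein of the kinetochore. They were 7.92-fold, 7.59-fold and 5.69-fold higher, and Cenpc reached 12.5 ± 1.53 CPM in aged cells, against 2.19 ± 0.35 CPM in young cells. Among 17 genes of the anaphase-promoting complex and its regulators, 12 fell and 4 rose, with a median of -0.76 (10 fell and 5 rose when scaled by library size alone). The 2 least changed of the 81 were Gtse1, which encodes a microtubule-binding protein, and Dsn1, a kinetochore gene, with log2 changes of 0.03 and 0.04. Both were called higher when scaled by library size alone (0.36 and 0.38), and the sign of Dsn1 turned without aged replicate 1 (-0.05) and without young replicate 2, where it was nearest to 0.

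A list of 13 genes held the subunits of DREAM and MuvB, the MuvB activator partner B-MYB, and Rb1, the gene of the retinoblastoma protein. The retinoblastoma protein is related to the pocket proteins of DREAM but is no subunit of either complex. Calls numbered 9 higher and 4 lower of 13, beside 44.7% higher and 41.8% lower of all tested genes, and the median change was 0.60 on the log2 scale (10 higher and 1 lower when scaled by library size alone, beside 54% and 32.6% of all tested genes). The largest rise of the list was in Rb1, which had 42.8, 40.0 and 38.2 CPM in aged libraries, against 6.01, 11.2 and 6.86 CPM in young ones. The largest fall was in Mybl2, which encodes B-MYB and had 2.40, 2.89 and 3.43 CPM in aged libraries, against 43.8, 42.9 and 44.1 CPM in young ones. Groups were apart in both, 5.01-fold higher and 15.03-fold lower in aged cells (edgeR adjusted p = 6e-11 and 2.4e-16). Among the subunit genes the largest rise was in Lin9, a core gene of MuvB, with 11.1, 12.5 and 10.9 CPM in aged libraries, against 2.35, 3.19 and 2.02 CPM in young ones, a log2 change of 2.19 (edgeR adjusted p = 2.9e-10). DNA replication genes fell in 30 of 39 cases and rose in 5, beside 41.8% and 44.7% of all tested genes. Their median change was -1.52 (29 fell and 8 rose when scaled by library size alone). Tk1, the thymidine kinase gene, fell 18.3-fold, to 4.86 ± 0.36 CPM against 89.1 ± 4.49 CPM in young cells, and Pola1, the catalytic subunit gene of DNA polymerase alpha, rose 2.62-fold, to 7.06 ± 0.85 CPM against 2.70 ± 0.46 CPM (SD, n = 3 each).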

How the data were processed

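RNA was isolated with TRIzol, and the VAHTS Universal V6 kit served for library preparation, per the labels' protocols. Reads were handled with fastp, HISAT2 and HTSeq, per the submitters' processing notes. Not given in the sources used here are their versions and settings, the genome build, the annotation and the strand setting, so reads of overlapping or antisense genes cannot be told apart. The authors deposited raw counts per gene symbol, 1 column per library. Each column was matched to its sample by the library name in the labels. The test was edgeR's quasi-likelihood F test (edgeR 4.0.16, R 4.3.3; filterByExpr with a minimum count of 10, TMM, glmQLFit and glmQLFTest, group as the only term), and p-values were adjusted over all 14273 tested genes. A standard error is the log2 change divided by the square root of F. Intervals for log2 changes are 95% and use the fit's degrees of freedom. The procedure was tested on simulated data.

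Members and lists were chosen with earlier results of these data known. Genes to be described were chosen by rule. They were, in each role, the largest and smallest change, the highest level and those not called or against the majority; of the other mitotic genes, the 3 largest rises and falls and the 2 least changed; of the DREAM, MuvB and replication lists, the largest rise and fall; of the marker lists, the 2 highest. Members under this rule, Rb1, Mybl2 and, added with their values known, Bub1, Mki67, Cdc25b and Lin9 are given by library, the other genes as means, folds or log2 changes. Further genes named in the text were picked with their values known. A planned description of protein sequences was not run. Libraries of a group differed by more than sampling noise (chi-square per degree of freedom 3.16 to 11.1 over genes with at least 20 counts in a pair). Each was treated as 1 replicate, although such a difference does not show that they came from different animals. Alternatives were other scalings, no count filter, DESeq2 1.42.0, limma-voom (limma 3.58.1), a replicate block and leaving out each library. Limits from 3 counts cover counting error only.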

Additional observations from a re-analysis of the deposited data

How the results depend on the processing

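Scaling by library size alone raised log2 changes of all genes by a median of 0.34 and put 62.3% of called genes on the higher side instead of 51.7%. Members called higher then numbered 5 instead of 3, replication genes called higher 8 instead of 5, and the median of the members was -2.14. The sign turned for Cdc25c (0.22), Zwilch (0.10), Cenpn (0.00733), Ncapg (0.29), Mki67 (0.0506), Hmmr (0.0886) and Anln (0.0649), of which Cdc25c was called. That scaling leaves out the composition factors, and the cause of each turn was not tested. The other scalings, no count filter, DESeq2 and limma-voom changed the side of the threshold or the direction of none of the 57 members. Leaving out 1 library at a time gave 47 to 50 members lower and 3 higher, and changes of -0.0211 to 0.0501 for Zw10, -0.11 to 0.00822 for Ncapg and -0.0496 to 0.11 for Dsn1. Whether replicate numbers pair the libraries is not stated. Deviations of same-numbered libraries correlated at -0.0130, 0.0011 and 0.0098, and not every library correlated best with its own number. That check sees only shifts shared over all genes, so it cannot exclude pairing. With the replicate block 49 members were lower and 3 higher, no member's call changed, and 41.2% of all tested genes were lower and 44% higher. The standard errors of Ttk (0.31), Pbk (0.28) and Sgo1 (0.23) were the largest among the 57.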
